A study of Mus musculus with 8 samples.

Results

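The genes described are 10 immediate early genes, Fos, Fosb, Jun, Junb, Egr1, Atf3, Zfp36, Ier2, Dusp1 and Nr4a1, out of 22180 mouse genes measured. They were listed by name as genes known to be induced while a tissue is taken apart. The rule uses no measured value, but the list was chosen with earlier results of these data known. Each gene was read from its only probe set with exactly 1 gene symbol. The cells were sorted from mouse colon as CD31-positive, CD45-negative and CD11b-negative, a gate for endothelial cells, and their RNA was hybridised to 8 Affymetrix Mouse Gene 2.0 arrays 2 days after transplantation. The allogeneic group (4 arrays) came from C57BL/6 recipients of LP/J bone marrow and T cells, the setting of early graft-versus-host disease. The syngeneic group (4 arrays) came from C57BL/6 recipients of C57BL/6 bone marrow and T cells. All recipients were female and had 5 days of busulfan and cyclophosphamide beforehand, and no age is given. Every colon was digested in collagenase IV (1 mg/ml) for 60 min at 37 °C with shaking before the sort, and 700 pg of total RNA was amplified for each array. No sample taken before digestion was analysed here, so the part of digestion in the levels was not tested.

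Immediate early genes are transcribed within minutes of a stimulus from factors already present in the cell, without new protein synthesis. Growth factors, shear, heat, wounding and enzyme digestion act on them through MAP kinases, serum response factor with its partners, and CREB. In endothelium several of them also respond to flow and to inflammatory signals. Their products are mostly transcription factors, together with inhibitors that end the response, and they are widely read as a mark of handling in sorted cells.

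The arrays did not hold endothelial RNA alone. Pecam1, which encodes the sort marker CD31, averaged 10.37 on the log2 scale of the arrays, which ran from 1.389 to 13.897, and the endothelial cadherin gene Cdh5 ran from 9.20 to 11.37 over the arrays. The excluded markers Ptprc (CD45) and Itgam (CD11b) averaged 5.20 and 5.34. Epithelial transcripts were abundant on every array, with averages of 9.36 for the adhesion gene Epcam, 11.89 for the keratin gene Krt8 and 13.00 for the carbonic anhydrase gene Car1. The mean over 25 endothelial markers was 7.55, 7.70, 8.24 and 8.22 on allogeneic arrays 1 to 4, against 8.12, 7.80, 8.80 and 9.74 on syngeneic arrays 1 to 4. Syngeneic arrays 3 and 4 thus held the most endothelial signal and stood apart from the rest. Their values over all genes were also the least like those of the rest (mean Pearson r of 0.9761 and 0.9703). Changes of the 10 genes between donor types are also shown without syngeneic arrays 3 and 4 together. Most slopes on endothelial signal are given with and without syngeneic array 4 or both. The mean over 25 colon epithelial markers ran the other way, from 10.41 to 10.63 on allogeneic arrays and from 9.82 to 10.39 on syngeneic arrays. In such bulk samples fewer cells of a type and less RNA per cell cannot be told apart.

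Upstream sequences are shown for the pair of members with the steepest slopes on endothelial signal (Nr4a1 and Dusp1, described further on) and for Fos. The slope of Fos was smallest among the 8 members with a promoter sequence in the RefSeq set used here. Egr1 and Ier2 had none in that set, so their windows were not searched. The windows hold the 250 bases before the annotated start, 5′ to 3′ on the gene's strand, from RefSeq on GRCm38.p6. Nr4a1 lies on the plus strand at chr15:101266596-101266845, Dusp1 on the minus strand at chr17:26508473-26508722 and Fos on the plus strand at chr12:85473640-85473889. Capitals mark TGACG on either strand, the core of the element bound by CREB and ATF proteins, which reads CGTCA where it lies on the other strand.
Nr4a1: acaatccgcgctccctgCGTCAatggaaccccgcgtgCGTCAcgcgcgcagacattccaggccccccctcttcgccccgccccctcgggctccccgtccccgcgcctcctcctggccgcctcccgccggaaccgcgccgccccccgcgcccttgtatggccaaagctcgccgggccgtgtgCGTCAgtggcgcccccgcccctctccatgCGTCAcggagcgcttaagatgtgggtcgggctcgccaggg
Dusp1: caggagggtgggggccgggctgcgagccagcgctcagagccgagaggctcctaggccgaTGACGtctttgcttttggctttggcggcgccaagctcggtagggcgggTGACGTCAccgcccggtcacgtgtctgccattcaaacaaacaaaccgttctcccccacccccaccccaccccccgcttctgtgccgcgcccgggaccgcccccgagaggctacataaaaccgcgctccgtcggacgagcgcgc
Fos: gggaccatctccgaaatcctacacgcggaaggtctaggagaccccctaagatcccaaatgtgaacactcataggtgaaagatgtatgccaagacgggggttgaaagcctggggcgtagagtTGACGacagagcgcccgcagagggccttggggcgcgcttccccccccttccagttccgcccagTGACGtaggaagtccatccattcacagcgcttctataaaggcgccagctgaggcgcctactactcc
TGACG, searched on both strands, was in the windows of 6 of the 8 members (Atf3, Dusp1, Fos, Fosb, Junb and Nr4a1) and in 17.8% of all 32851 promoter windows of that length. Nr4a1 had 4 matches, which began 233, 213, 69 and 40 bases before the start, and Fos had 2, at 129 and 66 bases. The full palindrome TGACGTCA, which contains TGACG, was in the window of Dusp1 alone among the 8, 143 bases before the start, and in 1.55% of all windows. The serum response CArG box was found in the window of Zfp36 and in 1.47% of all windows. TATAAA was found in that of Fos and in 12.4% of all windows, and the AP-1 element TGANTCA in 0 of the 8 and in 6.75% of all windows. Such matches are letters in a window and not measured binding sites. The windows of all promoters were not matched to those of the members on base composition, and the differences in share were not tested.

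The first question was how the members' levels ran over the 8 arrays. Most followed the same array order. Syngeneic array 4 was the highest array for 8 of the 10 members, against 15.6% of all genes, and allogeneic array 2 the lowest for 8 of 10, against 12.7% of all genes. For 7 members syngeneic arrays 3 and 4 were the 2 highest arrays, which held for 7.41% of all genes. The difference between the highest and the lowest array was more than 1 log2 unit for 7 members, against 22.6% of all genes. The exceptions in array order were Fos and Ier2, which were highest on allogeneic array 4.

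Among the members of the AP-1 dimer, whose FOS and JUN family subunits bind DNA as leucine zipper pairs, Fosb varied most. Fosb was at 7.21, 6.40, 7.08 and 7.42 on allogeneic arrays 1 to 4, against 7.18, 6.87, 7.43 and 8.56 on syngeneic arrays 1 to 4. Only syngeneic array 4 stood clear of the other 7, 1.14 above the next, and the groups overlapped. Its log2 change, allogeneic minus syngeneic, was -0.48 ± 0.34 (SE, limma adjusted p = 0.603). Fos, the founding member of that family, had values of 7.97, 7.58, 7.67 and 8.24 on allogeneic arrays and of 7.995, 7.74, 8.18 and 8.18 on syngeneic arrays. Its whole range was 0.65, the groups overlapped almost fully, and its log2 change was -0.16 ± 0.17 (SE, limma adjusted p = 0.756). The interval of that change, from -0.54 to 0.22 (95%), bounds what 4 arrays per group could show.

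Jun, the usual partner of FOS proteins, lay at 10.31, 9.85, 10.18 and 10.54 on allogeneic arrays, against 10.37, 10.13, 10.74 and 11.14 on syngeneic arrays. Syngeneic arrays 3 and 4 were above all others and the remaining 6 were mixed. Junb, a JUN protein that can also restrain JUN activity, had 9.17, 9.14, 9.28 and 9.39 on allogeneic arrays and 9.38, 9.34, 9.89 and 9.90 on syngeneic arrays. Here the groups overlapped, since syngeneic arrays 1 and 2 lay between allogeneic arrays 3 and 4. The log2 changes were -0.37 ± 0.21 for Jun and -0.38 ± 0.15 for Junb (SE, limma adjusted p = 0.488 and 0.309).

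Egr1, a zinc finger transcription factor, and Atf3, a stress-induced factor of the ATF and CREB family, were spread by few arrays. Egr1 had 6.75, 6.59, 6.34 and 6.77 on allogeneic arrays, against 6.71, 6.68, 7.07 and 7.70 on syngeneic arrays. Syngeneic arrays 3 and 4 were again the highest, and the groups overlapped in the others. Atf3 had 6.53, 5.92, 6.24 and 6.37 on allogeneic arrays, against 6.33, 6.27, 6.30 and 7.49 on syngeneic arrays. Syngeneic array 4 alone was high, and syngeneic array 3 was in the middle of the allogeneic values. The log2 changes were -0.42 ± 0.22 for Egr1 and -0.33 ± 0.27 for Atf3 (SE, limma adjusted p = 0.456 and 0.659).

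Nr4a1, an orphan nuclear receptor induced within minutes in many cell types, had the largest range, 2.42 log2 units or 5.35-fold. Its values were 7.70, 7.07, 7.69 and 7.51 on allogeneic arrays, against 7.73, 7.94, 9.02 and 9.50 on syngeneic arrays. The groups did not overlap, but syngeneic array 1 was only just above allogeneic array 1, while syngeneic arrays 3 and 4 were far above. Nr4a1 averaged 7.49 ± 0.29 on allogeneic arrays and 8.54 ± 0.85 on syngeneic arrays (SD, n = 4 each). Its log2 change was -1.05 ± 0.35 (SE, limma adjusted p = 0.227). Ier2, a nuclear early response protein, was the flattest member, at 7.02, 7.00, 7.03 and 7.23 on allogeneic arrays and 6.66, 7.06, 7.00 and 6.97 on syngeneic arrays. It was the only member with a positive log2 change (0.15 ± 0.14 SE, limma adjusted p = 0.707), and its values gave no sign of the order seen in the others.

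The remaining members encode brakes on the response. Dusp1, a phosphatase that switches off the stress kinases p38 and JNK, had 8.21, 7.85, 8.92 and 9.15 on allogeneic arrays, against 9.15, 8.85, 9.51 and 10.06 on syngeneic arrays. Allogeneic arrays 1 and 2 were lowest and the groups overlapped in the middle of the range. Zfp36 encodes tristetraprolin, which speeds the decay of mRNAs with AU-rich elements. It had 9.37, 8.81, 9.07 and 9.14 on allogeneic arrays, against 9.56, 9.47, 9.93 and 10.26 on syngeneic arrays. All 4 allogeneic values were below all 4 syngeneic ones, and syngeneic arrays 1 and 2 were also above the allogeneic group.

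**Figure D1:**
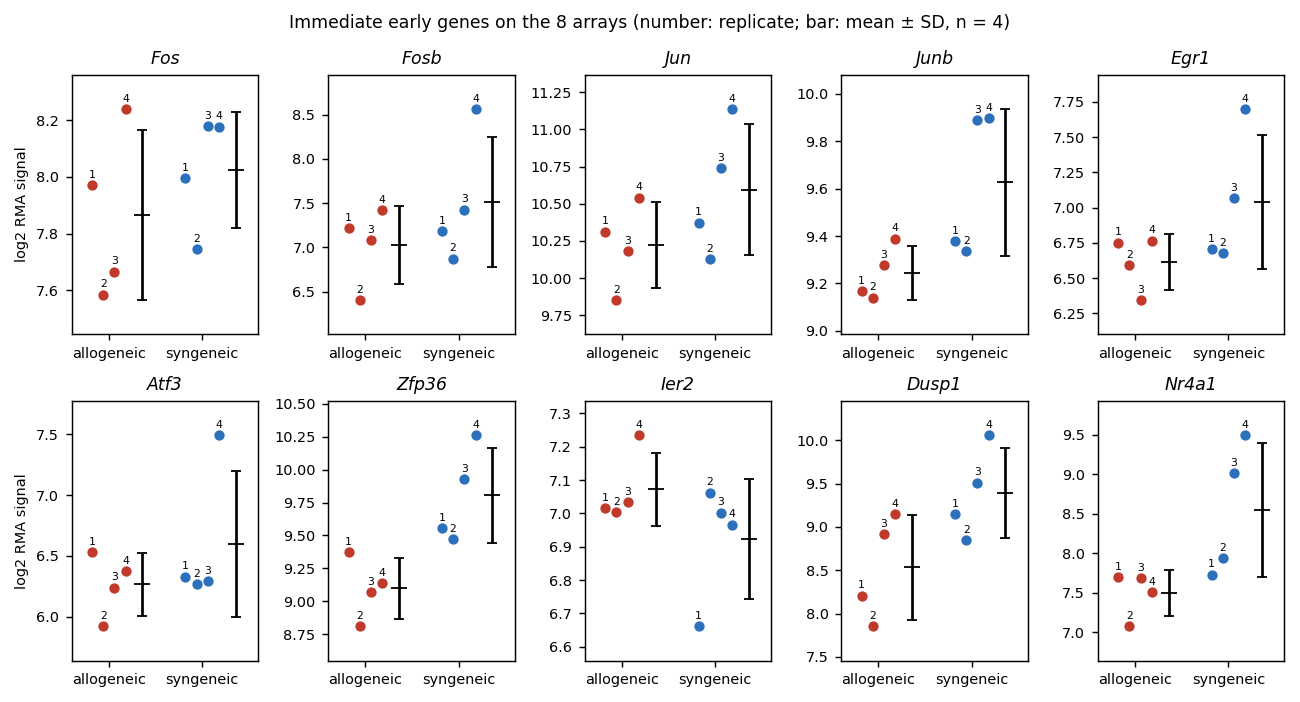
Log2 RMA signal (y axis, own scale per gene) of the 10 immediate early genes on the 4 allogeneic arrays (left, red) and the 4 syngeneic arrays (right, blue), numbered by replicate, with the mean ± SD of each group. Syngeneic array 4 is the highest point for 8 members, and the groups are apart only for Zfp36 and Nr4a1.

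The second question was whether donor type changed the members. No member passed the threshold in limma at an adjusted p below 0.05 over all 22180 genes, where 0.469% of all genes did. The smallest adjusted p was that of Zfp36 (0.127), which averaged 9.10 ± 0.23 on allogeneic arrays and 9.80 ± 0.36 on syngeneic arrays (SD, n = 4 each), with a log2 change of -0.71 ± 0.18 (SE). That is a level of 0.613 of the syngeneic one, with an interval of the log2 change from -1.11 to -0.30 (95%). Dusp1 averaged 8.53 ± 0.60 on allogeneic arrays and 9.39 ± 0.52 on syngeneic arrays (SD, n = 4 each). Its log2 change was -0.86 ± 0.31 (SE, limma adjusted p = 0.269). At an unadjusted p below 0.05, Zfp36, Nr4a1, Dusp1 and Junb were lower, 4 of 10, against 5.43% of all genes. The groups did not overlap, with allogeneic below, for 2 members, against 3.36% of all genes. The log2 change was negative for 9 of 10 members, against 51% of all genes, with a median of -0.40, against -0.01 over all genes.

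With endothelial signal in the model, the change lay nearer to 0 for every member but Ier2. With each array's endothelial marker mean as a covariate in the same model, 0 of 10 members passed in limma, against 0.176% of all genes, and 7 of 10 had a negative change, against 50.8% of all genes. The median of the members was -0.08. Fosb was then at 0.06 ± 0.23, Jun at -0.04 ± 0.14, Fos at -0.02 ± 0.18 and Atf3 at 0.03 ± 0.24 (SE). Nr4a1 was at -0.48 ± 0.24 and Dusp1 at -0.35 ± 0.21 (SE, limma adjusted p = 0.524 and 0.624). Zfp36 was at -0.47 ± 0.16 (SE, limma adjusted p = 0.29) and was the only member with an unadjusted p below 0.05 (0.0135), against 4.17% of all genes lower at that level. Without syngeneic arrays 3 and 4, the changes were -0.42 for Zfp36, -0.46 for Dusp1 and -0.34 for Nr4a1, and ran from -0.11 for Junb to nearly 0 for Fosb among Fos, Fosb, Jun, Junb, Egr1 and Atf3. For 7 of the 10 members syngeneic arrays 1 and 2 both lay within the allogeneic range, against 36.9% of all genes.

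**Figure D2:**
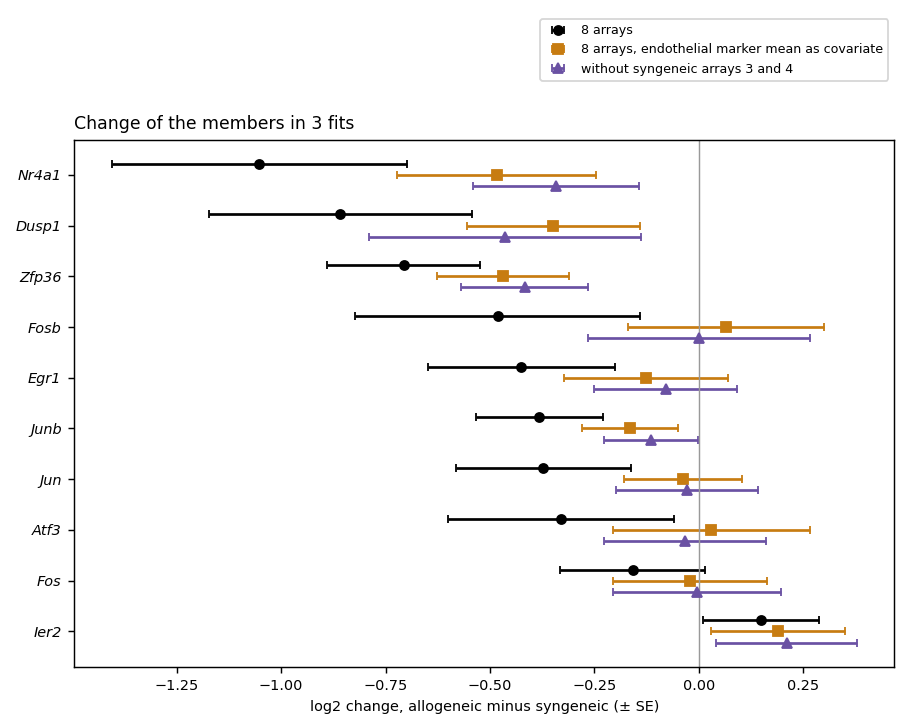
Log2 change, allogeneic minus syngeneic, with its SE (x axis) for the 10 members (y axis) from 8 arrays (black circles), from 8 arrays with the endothelial marker mean as a covariate (orange squares) and without syngeneic arrays 3 and 4 (purple triangles). Nr4a1 is at -1.05, -0.48 and -0.34 and Zfp36 at -0.71, -0.47 and -0.42, while Fosb, Jun, Atf3 and Fos lie close to 0 in the last 2 fits.

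The third question was how the members ran against endothelial content. A slope of 1 means that a gene gained 1 log2 unit for each log2 unit gained by the mean of the 25 endothelial markers, none of which is a member. In limma over all genes, 5 of the 10 members rose with that mean at an adjusted p below 0.05, against 3.08% of all genes, and 0 fell, against 1.81% of all genes. They were Nr4a1 (slope 1.02 ± 0.18), Dusp1 (0.88 ± 0.15), Fosb (0.77 ± 0.15), Jun (0.50 ± 0.09) and Junb (0.38 ± 0.08), with adjusted p = 0.00815, 0.00674, 0.0129, 0.0102 and 0.0238 (SE, limma, n = 8 arrays). Over all 8 arrays Nr4a1 and Dusp1 thus moved about as steeply as the markers themselves. Their intervals, from 0.62 to 1.41 and from 0.55 to 1.20 (95%), include 1. Without syngeneic arrays 3 and 4 the slope of Nr4a1 was 0.15, with a Pearson r of 0.146, while r was 0.827 for Dusp1. The interval of Junb, from 0.20 to 0.56, does not.

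Zfp36 (0.53 ± 0.14), Atf3 (0.51 ± 0.15) and Egr1 (0.48 ± 0.13) had slopes like that of Jun but did not pass (SE, limma adjusted p = 0.0522, 0.084 and 0.0548). The slope of Fos was 0.21 ± 0.12 (SE, limma adjusted p = 0.479), with an interval from -0.05 to 0.47. Ier2 had a slope of -0.01 ± 0.11 (SE, limma adjusted p = 0.978), and its interval from -0.25 to 0.22 does not reach the slopes fitted for the members that passed. In all, 9 of 10 members had a positive slope, against 46.9% of all genes, with a median of 0.51, against -0.01 over all genes. At an unadjusted p below 0.05, 8 of 10 rose, against 8.03% of all genes.

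The calls for this relation depended on syngeneic array 4. Without syngeneic array 4, 0 members and 19 genes in all rose in limma at an adjusted p below 0.05. The slopes were then 1.18 for Dusp1, 1.04 for Nr4a1, 0.53 for Junb, 0.51 for Fosb and for Jun, 0.48 for Zfp36 and 0.32 for Fos, but 0.22 for Egr1 and 0.02 for Atf3. With donor group as a term in the same fit, 4 members rose, against 2.2% of all genes, and Junb did not pass (adjusted p = 0.0934, limma). The Pearson correlation with the endothelial mean over the 8 arrays was 0.895 for Dusp1 (rho = 0.905, two-sided exact permutation p = 0.00166 and 0.00456). It was 0.908 for Junb (rho = 0.833, exact permutation p = 0.00166 and 0.0154) and 0.886 for Nr4a1 (rho = 0.548, exact permutation p = 0.00719 and 0.171). For Ier2 r was -0.0664 (rho = -0.262, exact permutation p = 0.861 and 0.536). Jun had r = 0.895 and rho = 0.738 (exact permutation p = 0.00305 and 0.0458), and Fosb r = 0.884 and rho = 0.667 (exact permutation p = 0.00754 and 0.0831). As for Nr4a1, the rank correlation was well below r for Egr1 (r = 0.844, rho = 0.5, exact permutation p = 0.02 and 0.216) and Atf3 (r = 0.787, rho = 0.238, exact permutation p = 0.0609 and 0.582). Zfp36 had r = 0.796 and rho = 0.548 (exact permutation p = 0.0172 and 0.171), and Fos r = 0.583 and rho = 0.524 (exact permutation p = 0.124 and 0.197). None of these 20 correlations passed when adjusted over the 22180 genes (Benjamini-Hochberg adjusted p of at least 0.101 for r and 0.335 for rho). Leaving out syngeneic arrays 3 and 4, the 2 farthest from the median of the endothelial mean, r was lower for every member with a positive r. It was 0.827 for Dusp1 and 0.748 for Junb, 0.493 for Jun, 0.487 for Fosb and 0.31 for Fos. It was 0.146 for Nr4a1, 0.0441 for Atf3, -0.0108 for Zfp36 and -0.341 for Egr1. For the last 4 little or no positive r was left. The endothelial mean of the 6 arrays left ran only from 7.55 to 8.24, and a narrower range can itself lower r. The slope without syngeneic arrays 3 and 4 was 0.26 for Fos and 0.27 for Junb, against 0.21 and 0.38 with all 8 arrays. A lower r therefore does not settle on which arrays the relation rested. Each group alone has 4 arrays, too few for a correlation.

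**Figure D3:**
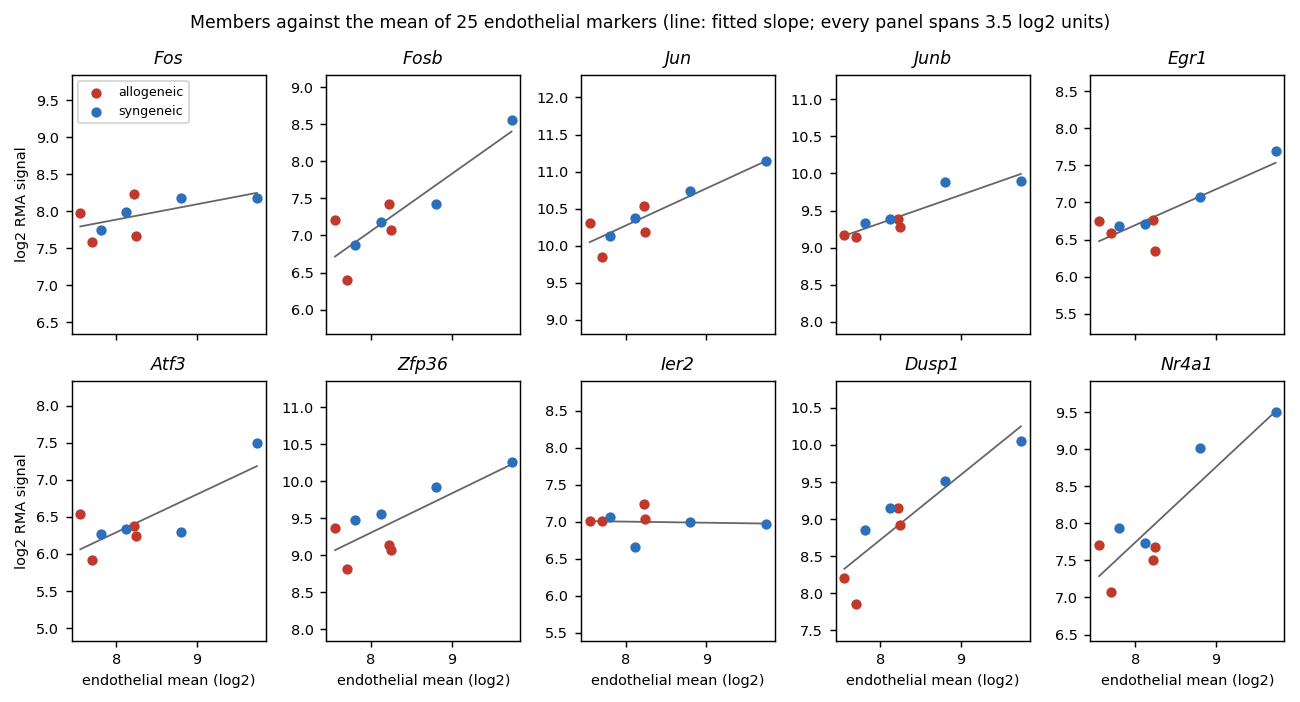
Log2 RMA signal of each member (y axis, 3.5 log2 units in every panel) against the mean of 25 endothelial markers on the same array (x axis), with allogeneic arrays in red, syngeneic arrays in blue and the fitted slope as a line. Nr4a1, Dusp1 and Fosb climb steeply, Fos little (0.21) and Ier2 not (-0.01), and syngeneic array 4 is the rightmost point at 9.74.

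Marker lists of other cells moved over the same arrays. The mean of 10 smooth muscle and pericyte markers ran from 7.74 to 8.45 on allogeneic arrays and from 7.87 to 8.80 on syngeneic arrays, with syngeneic array 4 the highest, and 9 of its 10 genes had a negative log2 change. When that mean was added to the model, which was decided on once the values were known, Nr4a1 was at -0.68, Zfp36 at -0.52 and Dusp1 at -0.53. Of the epithelial markers 22 of 25 had a positive log2 change, and the carbonic anhydrase gene Car2 passed (1.42 ± 0.20 SE, limma adjusted p = 0.0238). With the epithelial mean as a covariate 5 of 10 members had a negative change, and Zfp36 was at -0.34, Dusp1 at -0.42 and Nr4a1 at -0.15. The means of 10 fibroblast markers (7.64 to 8.63 on allogeneic and 7.24 to 7.93 on syngeneic arrays) and of 15 leukocyte markers (4.89 to 5.56 and 5.18 to 5.50) were not highest on syngeneic array 4. The mean of 7 enteric glia and neuron markers was highest on syngeneic arrays 4 and 3, as was that of the members. It ran from 4.78 to 5.07 on allogeneic arrays and from 4.90 to 5.37 on syngeneic arrays. Gene by gene, 1 of these 7 markers had those 2 arrays on top, against 7.41% of all genes. A negative log2 change was found for 3 of them, against 51% of all genes, and a positive one for 4. Among them Uchl1, a neuronal ubiquitin hydrolase gene, ran from 6.01 to 6.80 on allogeneic arrays and from 6.17 to 8.50 on syngeneic arrays. Of the 15 leukocyte markers 8 had a negative log2 change, against 51% of all genes, and 7 a positive one (median -0.06). Only S100a8, which encodes a calcium-binding protein abundant in neutrophils, passed (-1.94 ± 0.18 SE, limma adjusted p = 0.00424), against 0.469% of all genes. Its signal was low, from 2.59 to 3.41 on allogeneic and from 4.75 to 5.25 on syngeneic arrays. Medians over all probe sets of an array were 4.68 to 4.79. The parts of the fibroblast, leukocyte, and glia and neuron markers in the members' values were not tested.

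The other early response genes were also mostly on the negative side between donor types, without a call. Of all genes 51% had a negative change and 0.469% passed. Of 10 further subunits of AP-1 and its relatives, 0 passed in limma and 8 had a negative log2 change, with a median of -0.35. Fosl2, a late FOS family protein, was at -0.57 ± 0.14 (limma adjusted p = 0.103), and Batf3, which pairs with JUN proteins in immune cells, at -0.86 ± 0.25 (SE, limma adjusted p = 0.157). Fosl2 had 8.45, 8.88, 8.65 and 8.95 on allogeneic arrays, against 9.21, 9.17, 9.40 and 9.42 on syngeneic arrays, without overlap, and its slope on the endothelial mean was 0.34 (limma adjusted p = 0.198). Of 24 other early transcription factors 0 passed and 19 had a negative change (median -0.22). The smallest p values there were those of Bhlhe40 (-0.40), a repressor tied to the circadian clock, and Id1 (-0.45), an inhibitor of basic helix-loop-helix factors, and Cebpd was further from 0 (-0.59). Of 29 other early effectors 0 passed and 22 had a negative change (median -0.17). Among them Thbs1, the matrix protein thrombospondin 1, was at -0.87 and the stress gene Gadd45g at -0.80 (limma adjusted p = 0.176 and 0.178). The 10 other MAP kinase phosphatases had 7 negative changes and no call, with Dusp6, which acts on ERK, at -0.50 (limma adjusted p = 0.273). By unadjusted p below 0.05, these 4 lists held 4, 5, 6 and 2 lower genes and 0, 0, 0 and 1 higher. Of all genes 5.43% were lower at that level. With the endothelial marker mean as a covariate, 8 of 10, 14 of 24, 13 of 29 and 6 of 10 had a negative change, against 50.8% of all genes. The medians of the 4 lists were then -0.22, -0.05, 0.01 and -0.12.

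With endothelial content 11 of these other early genes rose, where 3.08% of all genes rose and 1.81% fell. Of the 24 transcription factors 4 rose in limma (Cebpd, Klf2, Id3 and Csrnp1), of the 29 effectors 7 rose (Ppp1r15a, Thbs1, Gadd45g, Sgk1, Ccn1, Nfkbia and Rhob), and of the 10 AP-1 relatives and 10 phosphatases 0 did, none falling in any of the 4 lists. These genes are named for their slope after the values were seen. Without syngeneic array 4, 0 of the 11 passed in limma (adjusted p from 0.251 for Ppp1r15a to 0.995 for Csrnp1). Slopes were then 0.69 for Cebpd, 0.66 for Klf2 and 0.15 for Id3, against 0.61, 0.93 and 0.61 with all arrays, and that of Csrnp1 was -0.00546, against 0.71. Those of Thbs1, Gadd45g, Sgk1, Ccn1, Nfkbia and Rhob were 0.87, 0.59, 0.68, 0.32, 0.33 and 0.39, against 0.82, 0.74, 0.92, 0.53, 0.39 and 0.44. Klf2, a factor induced by shear stress in endothelium, had a slope of 0.93 ± 0.17 and Ppp1r15a, a phosphatase subunit of the stress response, one of 0.97 ± 0.14 (SE, limma adjusted p = 0.0101 and 0.00245). Ppp1r15a had 7.38, 6.91, 7.29 and 7.91 on allogeneic arrays, against 7.43, 7.27, 8.42 and 9.14 on syngeneic arrays, an order like that of the members. Its slope was 0.97 without syngeneic array 4 and 0.60 without syngeneic arrays 3 and 4, and that of Klf2 0.68 without both. Median slopes of the 4 lists were 0.23 for the AP-1 relatives, 0.17 for the transcription factors, 0.27 for the effectors and 0.10 for the phosphatases, and the difference of the members from them was not tested.

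Heat shock genes are induced by warm digestion as well. Of 12 measured, 0 passed between donor types, against 0.469% of all genes. A negative log2 change was found for 10 (median -0.16), against 51% of all genes. With endothelial content 2 rose, against 3.08% of all genes, but the median slope of the 12 was only 0.07. Hspa1a, an inducible HSP70 chaperone, had 10.98, 9.61, 10.65 and 11.20 on allogeneic arrays, against 11.10, 10.97, 11.35 and 12.28 on syngeneic arrays. It was lowest on allogeneic array 2 and highest on syngeneic array 4, as were Nr4a1 and Dusp1, with a log2 change of -0.81 ± 0.35 and a slope of 0.82 ± 0.20 (SE, limma adjusted p = 0.354 and 0.0436). Hspb1, a small heat shock protein, had a slope of 1.14 ± 0.10 (SE, limma adjusted p = 0.000259). Of 21 measured upstream kinases and factors 0 passed between donor types, with a median log2 change of -0.07. Elk3, a partner of serum response factor, rose with the endothelial mean (0.92 ± 0.11), and Map2k6, a kinase that activates p38, fell with it (-0.79 ± 0.20 SE, limma adjusted p = 0.00104 and 0.0457). Without syngeneic array 4 these 4 calls were lost, with slopes of 1.098 for Hspb1, 0.71 for Hspa1a, 0.85 for Elk3 and -0.90 for Map2k6 (limma adjusted p from 0.109 to 0.517). Without syngeneic arrays 3 and 4 the slopes were 1.16, 0.73, 0.61 and -0.82. Between donor types Map2k6 was at 1.06 ± 0.27 (SE, limma adjusted p = 0.117).

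**Figure D4:**
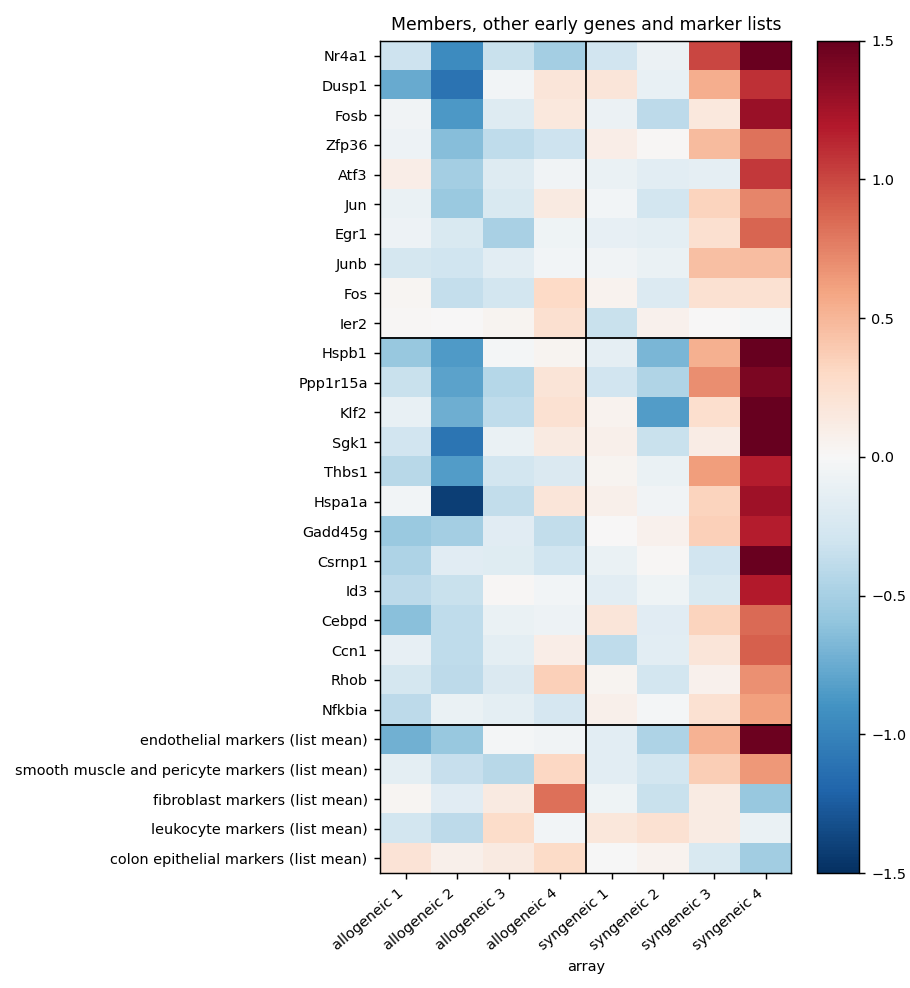
Log2 signal minus its mean over the 8 arrays (colour, ending at ±1.5) for the 10 members (top), for the early effectors, transcription factors and heat shock genes that rose with endothelial content (middle) and for 5 marker list means (bottom), with allogeneic arrays on the left and syngeneic arrays on the right. Syngeneic array 4 is the highest array for 8 of the 10 members, while Ier2 and Fos vary little.

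Genes outside the members were ranked by the Pearson correlation of their 8 values with the mean of the members' standardized values, among 10638 named genes at or above the median gene. The closest were Serpinh1, a collagen chaperone of the endoplasmic reticulum (r = 0.989, rho = 0.976), Ppp1r15a (r = 0.989, rho = 0.952), Plxnd1, an endothelial semaphorin receptor (r = 0.989, rho = 0.881), Lama3, a laminin chain (r = 0.989, rho = 0.976), and Tanc1, a scaffold protein (r = 0.985, rho = 0.929). They were picked as the highest of many over the same 8 arrays, so no p is given. Among the members themselves the correlation with that mean, of which each is a part, was highest for Jun (0.985) and Fosb (0.954) and was 0.801 for Fos and 0.0418 for Ier2. The log2 changes of the 5 genes lay between -0.69 for Ppp1r15a and -0.48 for Tanc1, and none passed between donor types (limma adjusted p from 0.397 to 0.513).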

How the data were processed

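For 8 arrays the deposited values are log2 signals, 1 per probe set, and per the submitters' processing notes the tools were RMA and Affymetrix Expression Console 1.4.1. Their annotation and level of summary were not given in the sources used here. Of 41345 probe sets, 23521 had exactly 1 gene symbol by the platform annotation, 1814 several and 16010 none. The probe set with the highest mean per gene gave 22180 genes, and each member had 1 such probe set. Groups and replicate numbers came from the sample titles. The design text counts 4 mice per group, and no batch or date was given.

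Computed here were limma 3.58.1 fits in R 4.3.3 (lmFit, eBayes with an intensity trend, Benjamini-Hochberg over 22180 genes, threshold 0.05) of donor group, of the mean of 25 endothelial markers, and of both together. Exact permutation of 8 arrays (Python 3.11.15) gave p for correlations. Intervals are 95%. The fits were tested on simulated data.

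Named genes are the members, up to 4 genes with the smallest p per list, 7 markers, and the 5 genes most like the members, and, chosen after their values were seen, listed genes called for their slope or between donor types and the marker Uchl1. The lists held 225 genes, of which 208 were measured. The members and lists were chosen with earlier results of these data known. Same-numbered arrays of the 2 groups had deviations that correlated at 0.0546, 0.0457, -0.0963 and 0.0954. These values gave no clear sign of pairing by number, but with 4 arrays per group they cannot settle it. Alternatives covered the variance prior, dim genes, scaling, array weights, probe set rule, threshold, covariates, block and arrays left out.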

Additional observations from a re-analysis of the deposited data

Results flagged for a closer look

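Of 26 sets of 4 arrays examined (the 10 members and 3 list means in each group), 2 had an array far from the other 3 by Dixon's test, where chance gives about 1 in 20. Atf3 was at 7.49 on syngeneic array 4, against 6.27 to 6.33 on the other syngeneic arrays. Ier2 was at 7.23 on allogeneic array 4, against 7.00 to 7.03 on the other allogeneic arrays.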

How the results depend on the processing

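With the replicate number as a block, Dusp1 was lower between donor types (limma adjusted p = 0.0476), 1 member in all, against 28 genes lower (0.126%) and 40 higher. Under the other alternatives 0 members passed. Whether the numbers pair the samples could not be settled. Over all genes, 138 higher and 55 lower passed among genes at or above the median gene, 46 higher after repeated quantile normalization, 39 lower with array weights, and 203 and 102 at a threshold of 0.1. Without syngeneic arrays 3 and 4 these were 26 and 12, with the endothelial covariate 26 and 13, with the epithelial one 4 and 2, and with the smooth muscle one, added after the values were known, 45 higher. The change of Fosb was 0.000863 without syngeneic arrays 3 and 4. With the endothelial covariate Fosb was at 0.0647 and Atf3 at 0.0295. With the epithelial one Fosb was at 0.201, Jun at 0.0254, Egr1 at 0.086, Atf3 at 0.214 and Elk3 at 0.0114, 5 members were below 0 and the median was -0.0305. With the smooth muscle one Fos was at 0.013. Leaving out 1 array gave 4 to 145 higher and 4 to 35 lower genes, 0 members called, 9 below 0 and medians from -0.536 to -0.198. For the slope, the replicate block left 282 genes and 1 member rising (Nr4a1), and the epithelial mean with its sign turned 436 genes and 2 members, with a median of 1.29. Pecam1 alone gave 222 genes falling. With donor group as a term 168 genes fell, 0 members had a negative slope and Ier2 was at 0.059. Without syngeneic arrays 3 and 4, also added later, 0 genes and 0 members passed in limma, 3 members had a negative slope, and Egr1 was at -0.184 and Zfp36 at -0.0104. Leaving out 1 array gave 19 to 736 genes rising, 2 to 474 falling, 0 to 7 members rising, 0 to 1 negative slopes and medians from 0.462 to 0.595. Ier2 then ranged from -0.0317 to 0.000137 and Csrnp1 from -0.00546 to 0.83. For the donor change with the endothelial covariate, 10 higher and 5 lower genes passed without an intensity trend, 10 and 4 with the replicate block (Fosb at -0.073), 59 and 23 with Pecam1 alone (Fosb at -0.0694, Atf3 at -0.0713), and 9 and 6 with the endothelial minus epithelial mean (Jun at 0.013). Leaving out 1 array gave 2 to 41 higher and 0 to 18 lower genes, 4 to 9 members below 0 and medians from -0.152 to 0.0569. Then Fos ranged from -0.166 to 0.1004, Fosb from -0.0393 to 0.18, Jun from -0.119 to 0.0517, Egr1 from -0.195 to 0.0621 and Atf3 from -0.0791 to 0.122. The causes were not tested, and 4 arrays per group limit every comparison.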
